A study of Homo sapiens with 8 samples.

Results

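The genes described here are 34 targets and partners of the transcription factor ATF4 in the amino acid response, the branch of the integrated stress response that adjusts amino acid supply. They were selected by gene symbol from a list of known members. Where a symbol had more than 1 transcript cluster, the array's unit of a gene, the cluster with the highest mean over the 8 arrays was taken. Of the 34 genes 32 had a cluster among the 17881 of the table, and PYCR1 and GPT2 were not analysed here. The RNA came from cells labelled RS4;11 and was hybridised to Affymetrix exon arrays. RS4;11 is a line of B-cell precursor acute lymphoblastic leukemia that carries an MLL fusion. The cells had been transduced with a control shRNA vector or an shRNA vector against BTG1, an antiproliferative protein and coregulator, and received vehicle or the synthetic glucocorticoid prednisolone for 8 h, giving 4 groups of 2 arrays. The study asked how BTG1 affects the response to prednisolone. Whether the 2 arrays of each group stem from separate cultures is not in the labels, so p-values measure only how far these arrays spread, possibly for technical reasons.

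When amino acids run short or the endoplasmic reticulum is stressed, kinases phosphorylate the translation factor eIF2alpha, general protein synthesis slows and the ATF4 messenger is translated more efficiently. ATF4 then pairs with C/EBP proteins on a composite DNA element and raises transporters and enzymes that supply amino acids, together with feedback genes such as TRIB3, CHAC1 and DDIT3 (which encodes CHOP). Because ATF4 is set mainly by translation, its messenger level is an incomplete measure of its activity. Lymphoblastic leukemia is known for its need of outside asparagine, which is the basis of asparaginase treatment, and glucocorticoids are catabolic in lymphoid cells.

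The element that ATF4 and C/EBP share was looked for in RefSeq promoters (GRCh38.p14, 250 bases before to 50 bases after a start site), since it is what these genes have in common by function. The core searched was TGATGNAA on both strands. Of the 34 genes 28 had a promoter in the RefSeq table, and 9 of these held the core in at least 1 window (32.1%), against 4.46% of all 27305 genes. By windows, the core was in 9 of 48 windows of these genes (18.8%) and in 3.62% of all 35116 windows. The 9 genes were ASNS, ATF3, CEBPG, CHAC1, JDP2, SLC1A4, SLC1A5, SLC3A2 and SLC7A1. The genes were listed as known ATF4 targets, so this share is a description of the list. With a T required after the core, 0 of the 28 genes and 1.22% of all genes matched. The sites below are those of a synthesis enzyme, a feedback enzyme, 2 transcription factors and a transporter, read along the strand of the gene, with the core or its reverse complement in capitals.
ASNS: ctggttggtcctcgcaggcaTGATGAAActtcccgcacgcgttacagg
CHAC1: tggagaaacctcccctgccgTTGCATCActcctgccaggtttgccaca
ATF3: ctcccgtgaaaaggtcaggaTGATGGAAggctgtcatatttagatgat
CEBPG: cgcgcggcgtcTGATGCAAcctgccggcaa
SLC1A5: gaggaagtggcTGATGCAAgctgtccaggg
The printed ASNS stretch is chr7:97872449-97872496 on the minus strand, and its core ends 61 bases before the start site. The CHAC1 stretch is chr15:40953242-40953289 on the plus strand, with the core 202 bases before the start site and turned to the other strand. The ATF3 stretch is chr1:212565196-212565243 on the plus strand, with the core 184 bases before the start site. The CEBPG site (chr19:33374060-33374089, plus strand) and the SLC1A5 site (chr19:46784893-46784922, minus strand) lie 35 and 90 bases before a start site that is not the one farthest upstream in the table. A match shows only that the letters are there.

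The labels were checked before the results. The cluster annotated BTG1;LINC01619 was lower on the arrays labelled BTG1 shRNA under vehicle (-2.06, limma adjusted p = 0.000388) and under prednisolone (-2.64, adjusted p = 0.000107). Of 10 T-lineage markers 9 were called higher on those arrays under each treatment, with a mean marker level of 9.06 to 9.36 per array against 4.30 to 4.89 on the control arrays. Of 9 B-lineage markers 9 were called lower under vehicle and 8 under prednisolone, with means of 4.35 to 4.59 against 8.75 to 9.56. CD3D, CD3E and CD3G stood at or above percentile 99 of each of these arrays, and at or below percentile 34.7 of each control array. The arrays labelled BTG1 shRNA thus go against the B-lineage label of the line. The shRNA and the lineage profile cannot be told apart in any difference between the labels, whether of level or of prednisolone effect. The first control vehicle array stood apart by the narrowest distribution (interquartile range 2.95, against 3.39 to 3.80 on the others). The 2 control vehicle arrays differed by a median of 0.44 over all clusters, against 0.18 to 0.25 within the other groups. Each SE below pools the spread of the 4 groups and does not show this inequality. All values are log2 expression levels, and levels of different genes are not compared because each cluster has its own probes.

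With prednisolone, most of the amino acid response genes stood higher in both cell populations, and SLC7A11 led them. Of the 32 genes 21 had both prednisolone arrays above both vehicle arrays with the control shRNA, where 15.3% of all clusters did. With the BTG1 shRNA label it was also 21 of 32, against 18.0% of all clusters. These comparisons share no array, and 16 genes were higher without overlap in both, against 1.96% of all clusters. They were SLC7A11, SLC7A5, SLC3A2, SLC7A1, SLC1A4, SLC1A5, SLC38A2, TRIB3, DDIT3, CEBPB, SESN2, VLDLR, PSAT1, STC2, PPP1R15A and EIF4EBP1. The difference was positive in both for 24 of 32 genes, against 11.8% of clusters. Of all 17881 clusters 6027 were positive in control cells and 10383 on the arrays labelled BTG1 shRNA. The median difference of the 32 genes was 0.43 with the control shRNA, where all clusters had a median of -0.16, and 0.39 on the arrays labelled BTG1 shRNA, where it was 0.03. Most of these differences were too small to pass the test singly. With limma and Benjamini-Hochberg adjustment over all clusters, 3 genes rose with the control shRNA (0.928% of all clusters did) and 0 fell (0.587% did), and at an unadjusted p below 0.05 there were 10 higher and 3 lower, with 1351 and 1175 among all 17881 clusters. Among the same genes under the BTG1 shRNA label, 0 of 32 were called, as were 0% of all clusters. At an unadjusted limma p below 0.05 there were 10 of the 32 genes higher and 0 lower on those arrays, and 125 and 61 among all clusters. No other fit that was run called a cluster there either.

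The count of 16 was 12 after quantile normalization, with 2.11% of all clusters, and 15 after centring each array on its median, with 2.13%. Without the first control vehicle array, 20 of 32 were higher without overlap in both, with 4.35% of all clusters. Leaving out an array can only keep or raise such a count.

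SLC7A11 encodes the light chain of the cystine-glutamate exchanger, which brings in cystine for glutathione. Control cells had values of 5.88 and 6.61 with vehicle and 8.70 and 9.76 with prednisolone. Cells labelled BTG1 shRNA had 4.35 and 4.66 with vehicle and 7.28 and 7.18 with prednisolone. Prednisolone arrays were thus higher in both populations with no overlap, from a lower starting level on the arrays labelled BTG1 shRNA. The rise with the control shRNA was 2.99 (SE 0.38, 7.94-fold, limma adjusted p = 0.0126), rank 15 of 17881 clusters by size. Under the BTG1 shRNA label the difference was 2.73 (SE 0.38), rank 1 of 17881 by size and by p. There its unadjusted limma p was 0.000125 and its adjusted p was 1.00. Its vehicle values there lay at percentiles 36.8 and 43.1 of their arrays, so no fold is given. Folds are printed only where each array of both groups read above its own median. The effects differed between the labels by -0.26 with a 95% interval of -1.51 to 0.99, which includes 0. The call in control cells was lost without the first control vehicle array (adjusted p = 0.0512) and when the second prednisolone array of control cells was dropped (adjusted p = 0.0719).

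SLC7A11 and PSAT1 were 2 of the 4 clusters in the whole table (0.0224%) that stood higher by over 1 on the log2 scale with prednisolone under both labels, without a test. The others were MSMO1, an enzyme of cholesterol synthesis, and TM6SF1. PSAT1 encodes phosphoserine aminotransferase of the serine synthesis pathway, and is singled out after its values were seen. It read 7.73 and 9.30 with vehicle and 9.82 and 9.77 with prednisolone in control cells, and 8.47 and 9.52 against 10.79 and 10.08 on the arrays labelled BTG1 shRNA. Vehicle replicates were far apart under both labels, the first array being the lower each time. Its differences of 1.28 (SE 0.54, adjusted p = 0.351) and 1.44 (SE 0.54, adjusted p = 1.00) did not pass.

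The other transporters had smaller differences, none of them called. SLC7A5 and SLC3A2 encode the light and heavy chains of the leucine carrier LAT1, and SLC3A2 is also the heavy chain of the cystine exchanger. SLC7A5 read 10.04 and 10.24 against 10.80 and 10.66 in control cells, and 9.84 and 10.15 against 10.94 and 10.60 on the arrays labelled BTG1 shRNA, with differences of 0.59 and 0.78 (SE 0.21 each). SLC3A2 differed by 0.44 and 0.54 (SE 0.22 each). Both chains were thus above their vehicle arrays in each population, without passing the test. SLC1A4, a carrier of alanine, serine and cysteine, differed by 0.54 in each population, and SLC1A5, a glutamine carrier, by 0.31 and 0.36. Of the 9 transporters 8 had a positive difference in control cells and 9 on the arrays labelled BTG1 shRNA, with medians of 0.44 and 0.54. SLC38A2, a carrier of small neutral amino acids, differed by 0.63 and 0.26 (SE 0.25 each), and SLC7A1, a carrier of arginine and lysine, by 0.27 and 0.31 (SE 0.21 each). The glycine carrier SLC6A9 read 6.97 and 6.45 against 6.96 and 6.59 in control cells (0.06, SE 0.28), where the arrays overlapped. With the BTG1 shRNA label it read 5.83 and 5.63 against 7.04 and 6.47 (1.02, SE 0.28). The exception in control cells was SLC43A1, a carrier of large neutral amino acids, at -0.62 (SE 0.19, adjusted p = 0.200).

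**Figure D1:**
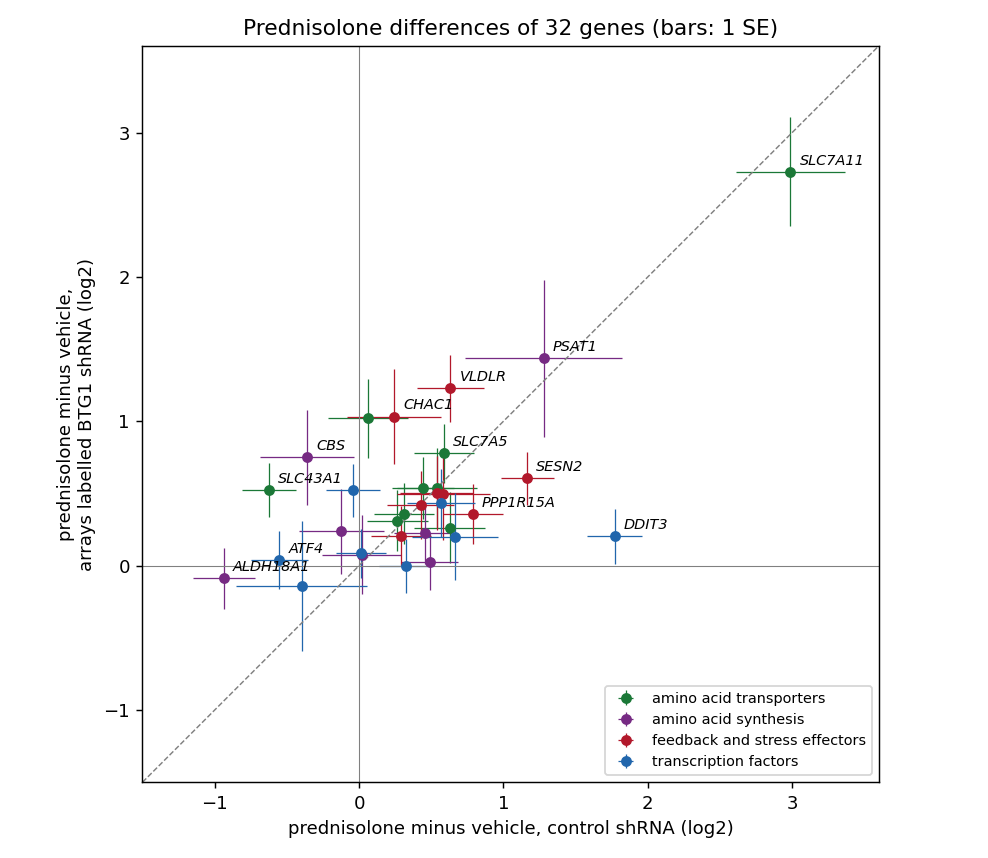
Prednisolone minus vehicle on the log2 scale for 32 genes, with the control shRNA on the x axis and on the arrays labelled BTG1 shRNA on the y axis. Points are limma differences from 2 against 2 arrays, bars are 1 SE, colours are roles and the dashed line marks equal differences. SLC7A11 lies near that line at 2.99 and 2.73, while DDIT3 lies at 1.77 and 0.20.

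Among the transcription factors DDIT3 stood apart. Its product CHOP is induced by ATF4 and is linked to cell death in prolonged stress. DDIT3 read 5.24 and 5.57 with vehicle and 7.05 and 7.30 with prednisolone in control cells. Under the BTG1 shRNA label it read 4.95 and 4.90 with vehicle and 5.09 and 5.17 with prednisolone, between percentiles 45.1 and 48.8 of those arrays, where its level above background is unknown. The control vehicle values lay at percentiles 46.6 and 54.8, so no fold is given. It rose by 1.77 in control cells (SE 0.19, limma adjusted p = 0.00678) and differed by 0.20 (SE 0.19) on the arrays labelled BTG1 shRNA. The difference between these effects was -1.57 (SE 0.27, 95% interval -2.20 to -0.94). Its unadjusted p was 0.000517 and its limma adjusted p 0.105, so it was not called. The rise in control cells was lost when the second prednisolone array of control cells was dropped (difference 1.65, adjusted p = 0.0828).

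ATF4 itself did not stand higher. It read 7.02 and 7.0 with vehicle and 6.54 and 6.38 with prednisolone in control cells, both prednisolone arrays being lower, at -0.55 (SE 0.20, limma adjusted p = 0.285). Cells labelled BTG1 shRNA read 6.70 and 6.74 with vehicle and 6.98 and 6.53 with prednisolone, which overlapped (0.04, SE 0.20). CEBPB, a C/EBP partner, differed by 0.57 and 0.43 (SE 0.24 each), and CEBPG, another partner, by 0.01 and 0.09 (SE 0.17 each). ATF3, a stress-induced repressor of the same family, differed by -0.04 in control cells and by 0.52 (SE 0.18) on the arrays labelled BTG1 shRNA, at 5.04 and 5.02 against 4.54 and 4.48. NUPR1, a stress-induced chromatin protein, had the largest error of the 8 factors (SE 0.45) and differed by -0.40 and -0.14. On the 8 arrays ATF3 lay at percentiles 39.6 to 46.8 and NUPR1 at 29.7 to 46.9. Their level above background is unknown there. Over the 8 factors the medians were 0.17 and 0.14, with DDIT3 as the called gene.

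Feedback and effector genes were positive in 8 of 8 cases under each label, with medians of 0.56 and 0.50. SESN2, a leucine sensor that restrains mTORC1, rose in control cells from 6.25 and 5.89 to 7.25 and 7.23 (1.17, SE 0.18, 2.24-fold, limma adjusted p = 0.0288). With the BTG1 shRNA label it read 6.10 and 6.12 with vehicle and 6.73 and 6.71 with prednisolone (0.61, SE 0.18), again with no overlap. The SESN2 call was lost without either control prednisolone array (adjusted p = 0.109 and 0.252). It was lost, too, when any 1 of the arrays labelled BTG1 shRNA was dropped (adjusted p = 0.0726 to 0.0920), which leaves its difference at 1.17. VLDLR, a lipoprotein receptor raised by ATF4 in stressed cells, read 8.26 and 8.71 against 9.16 and 9.08 in control cells (0.63, SE 0.23). Cells labelled BTG1 shRNA read 6.02 and 6.51 against 7.51 and 7.49 (1.23, SE 0.23, rank 11 of all clusters by size). PPP1R15A, which encodes the phosphatase subunit GADD34 that reverses eIF2alpha phosphorylation, differed by 0.79 and 0.36 (SE 0.20 each).

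TRIB3 and CHAC1, feedback genes downstream of ATF4 and CHOP, did not pass. TRIB3, a pseudokinase that binds ATF4, read 6.90 and 6.44 against 7.43 and 6.98 in control cells (0.54, SE 0.25). With the BTG1 shRNA label it read 7.14 and 7.13 against 7.85 and 7.43 (0.50, SE 0.25), so both comparisons were without overlap. CHAC1, which degrades glutathione, read 6.92 and 6.01 against 6.77 and 6.65 in control cells, where the vehicle arrays enclosed the others (0.24, SE 0.33). On the arrays labelled BTG1 shRNA it read 6.15 and 5.57 against 7.03 and 6.75 (1.03, SE 0.33). STC2, EIF4EBP1 and XPOT, a secreted glycoprotein, a translation repressor and a tRNA exporter, differed by 0.20 to 0.58 over both labels. STC2 lay at percentiles 34.4 to 47.1 of the 8 arrays, where its level above background is unknown.

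The 7 measured enzymes of amino acid synthesis had no called member with prednisolone, and medians of 0.02 in control cells and 0.23 on the arrays labelled BTG1 shRNA. ASNS, asparagine synthetase and a standard readout of this pathway, read 5.81 and 5.47 with vehicle and 5.51 and 5.52 with prednisolone in control cells, with both prednisolone values inside the vehicle range (-0.12, SE 0.29). On the arrays labelled BTG1 shRNA it read 7.66 and 7.22 against 7.29 and 8.07 (0.24, SE 0.29), again overlapping. PHGDH, the entry enzyme of serine synthesis, differed by 0.46 and 0.23 (SE 0.22 each). PSPH, its last enzyme, whose cluster is annotated with NUPR2 too, differed by 0.49 and 0.03 (SE 0.20 each). ALDH18A1, the first enzyme of proline synthesis, stood lower in control cells, at 9.70 and 10.08 with vehicle and 9.09 and 8.82 with prednisolone (-0.94, SE 0.21, adjusted p = 0.0972). It read 9.98 and 10.26 against 10.01 and 10.05 on the arrays labelled BTG1 shRNA (-0.09, SE 0.21). The 3 serine enzymes had positive differences under both labels, and no enzyme passed the test. On the arrays labelled BTG1 shRNA, PHGDH and PSPH overlapped between the treatments and PSAT1 did not.

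**Figure D2:**
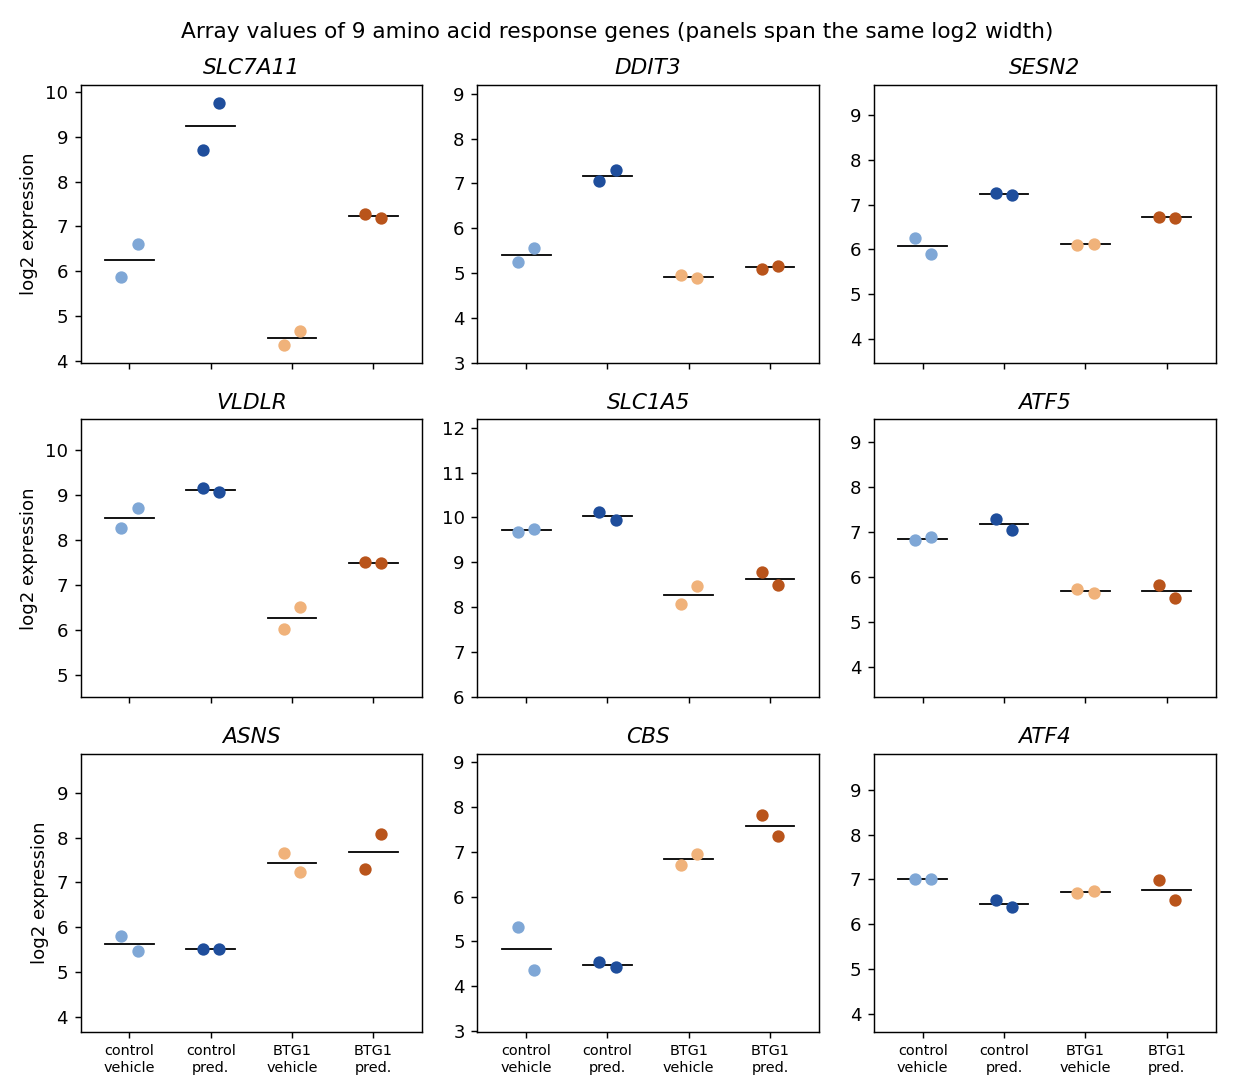
Log2 expression of 9 genes on each of the 8 arrays, by shRNA label and treatment (pred., prednisolone). Points are single arrays, black lines are means of 2, and each panel spans the same log2 width. SLC7A11, SESN2 and VLDLR are higher with prednisolone under both labels, DDIT3 is clearly so in control cells, and ASNS and CBS are separated by label.

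The test of the difference between the prednisolone effects called 0 of the 32 genes, where 0.134% of all clusters were called. At an unadjusted limma p below 0.05, 4 of the 32 genes had the higher effect on the arrays labelled BTG1 shRNA and 1, DDIT3, the lower. All clusters had 763 and 901. The median of this difference was 0.05 over the 32 genes and 0.20 over all clusters. The sign of the member median turned to -0.12 after centring each array. By comparison, of 13 genes of a list of glucocorticoid-induced genes 7 rose with prednisolone in control cells and 0 on the arrays labelled BTG1 shRNA. Of all clusters 0.928% and 0% did. The median differences of the 13 genes were 1.80 and 0.18. Of these, 3 were called in the test of the difference and all 3 were lower on the arrays labelled BTG1 shRNA. The amino acid response genes had medians of 0.43 and 0.39 in the same comparisons. Whether the 2 sets differ in this respect was not tested. NR3C1, which encodes the glucocorticoid receptor, was lower on the arrays labelled BTG1 shRNA. It differed by -2.53 under vehicle (limma adjusted p = 0.000733) and by -3.51 under prednisolone (adjusted p = 0.000133). Whether this bears on the prednisolone differences was not tested.

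Between the shRNA labels, 4 of 9 carriers were called lower on the arrays labelled BTG1 shRNA under vehicle and 3 of 9 under prednisolone, with 0 called higher. Of the 7 synthesis enzymes 2 and 3 were called higher and 0 lower. Under vehicle 2 of 32 genes were higher (8.46% of all clusters were) and 6 lower (6.21% were). Under prednisolone 3 were higher (10.0% of all clusters) and 8 lower (7.51%). Higher calls thus fell near the share of all clusters and lower calls above it. Lower without overlap were 37.5% of the 32 genes and 34.3% of all clusters under vehicle, and 46.9% and 21.5% under prednisolone. Higher without overlap were 15.6% and 24.5% under vehicle, and 21.9% and 28.4% under prednisolone. The higher calls were ASNS and CBS under both treatments and ALDH18A1 under prednisolone. The genes called lower under both treatments were SLC7A11, SLC1A4, SLC1A5, ATF5 and VLDLR. SLC43A1 was added under vehicle, and DDIT3, PPP1R15A and JDP2 under prednisolone.

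Of the carriers, SLC7A11 differed between the labels by -1.74 with vehicle (SE 0.38, limma adjusted p = 0.0196) and by -2.0 with prednisolone (SE 0.38, adjusted p = 0.00895), and was lower each time. SLC1A5 read 9.68, 9.75, 10.11 and 9.94 on the 4 control arrays and 8.06, 8.48, 8.78 and 8.49 on the arrays labelled BTG1 shRNA. All 4 of these were below all 4 control arrays, the gap being -1.44 with vehicle (SE 0.21, limma adjusted p = 0.0031) and -1.39 with prednisolone (SE 0.21, adjusted p = 0.00319). A second SLC1A5 cluster differed in the same direction, by -1.14 and -1.18 (adjusted p = 0.00712 and 0.00510). SLC1A4 read 7.91, 8.08, 8.12 and 8.96 against 6.80, 6.57, 7.28 and 7.17, lower by -1.31 (SE 0.28) under each treatment. Both obligate partners SLC7A5 and SLC3A2 differed by at most 0.15 in size between the labels (SE 0.21 and 0.22). The fourth carrier called lower under vehicle was SLC43A1, at 7.59 and 7.44 against 6.50 and 6.63 (-0.95, SE 0.19, adjusted p = 0.0134), and under prednisolone it differed by 0.20.

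VLDLR was lower too, at -2.22 with vehicle (SE 0.23, limma adjusted p = 0.000618) and -1.62 with prednisolone (SE 0.23, adjusted p = 0.00250). ATF5, a relative of ATF4 under the same translational control, read 6.82, 6.88, 7.29 and 7.06 on control arrays and 5.73, 5.64, 5.83 and 5.54 on the others, without overlap. It was lower by -1.16 (SE 0.19, adjusted p = 0.00489) and -1.49 (SE 0.19, adjusted p = 0.00125). DDIT3 differed by -0.48 (adjusted p = 0.152) under vehicle and by -2.05 (SE 0.19, adjusted p = 0.000295) under prednisolone. JDP2, a repressor of AP-1 and ATF sites, read 6.49 and 6.55 against 5.48 and 5.20 under prednisolone, lower by -1.18 (SE 0.30, adjusted p = 0.0320), and differed by -0.72 under vehicle. ATF4 differed by -0.30 and 0.30 (SE 0.20 each), so its own level was not called in either direction.

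ASNS was higher 3.50-fold with vehicle (1.81, SE 0.29, limma adjusted p = 0.00522) and 4.49-fold with prednisolone (2.17, SE 0.29, adjusted p = 0.00181). Its control arrays lay at 5.47 to 5.81 and the others at 7.22 to 8.07. CBS, which opens the route from homocysteine to cysteine, read 5.33, 4.35, 4.54 and 4.42 on control arrays and 6.71, 6.95, 7.82 and 7.34 on the others. It was higher by 1.99 (SE 0.33, adjusted p = 0.00578) and 3.1 (SE 0.33, adjusted p = 0.000554). The control values of CBS lay between percentiles 37.7 and 48.0 of those arrays, so no fold is given. CTH, the next enzyme on that route, differed by 0.55 and 0.60 (SE 0.27 each, not called). It lay at percentiles 27.5 to 49.4 of the 8 arrays, where its level above background is unknown. ALDH18A1 was higher under prednisolone by 1.07 (SE 0.21, adjusted p = 0.0109), at 10.01 and 10.05 against 9.09 and 8.82. Of the 7 enzymes 7 were positive under vehicle and 6 under prednisolone, and 2 and 3 were called. Among all 17881 clusters 7032 and 10345 were positive.

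ASNS, SLC1A5 and VLDLR kept their calls without any 1 array under both treatments, as did CBS, ATF5 and DDIT3 under prednisolone. Under vehicle, SLC7A11, SLC1A4 and SLC43A1 lost theirs when either of the BTG1 shRNA vehicle arrays was dropped, and CBS and ATF5 without the second (adjusted p = 0.0503 to 0.130). Under prednisolone, JDP2 and PPP1R15A lost theirs without any 1 prednisolone array. PPP1R15A also lost its call without either BTG1 shRNA vehicle array (adjusted p = 0.0711), with a trended prior (adjusted p = 0.0962) and with dim clusters removed (adjusted p = 0.0549), 8 alternatives in all. The calls of SLC1A4 and ALDH18A1 were lost without the second control prednisolone array or either of those labelled BTG1 shRNA. SLC7A11 lost its call there without the second array labelled BTG1 shRNA (adjusted p for these losses 0.0530 to 0.203).

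**Figure D3:**
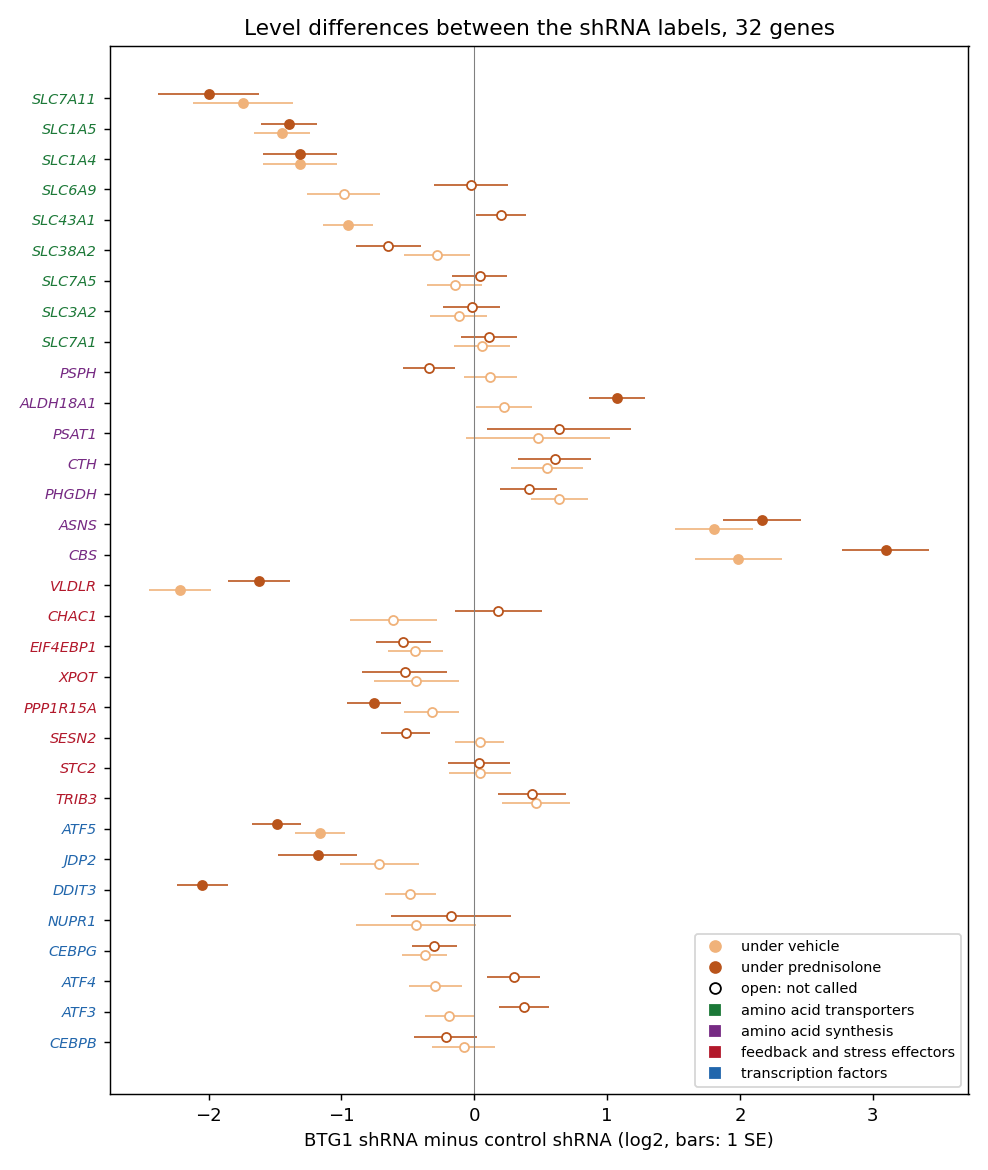
BTG1 shRNA minus control shRNA on the log2 scale for 32 genes, under vehicle and under prednisolone, with limma differences as points and 1 SE as bars. Gene names are coloured by role, and filled points passed an adjusted p of 0.05. ASNS and CBS lie furthest to the right and VLDLR furthest to the left under vehicle, and DDIT3 at -2.05 under prednisolone.

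Other genes of the pathway were counted from lists. Of 19 measured eIF2alpha kinases, eIF2 and eIF2B subunits and regulators, 0 were called with prednisolone under either label (at an unadjusted limma p below 0.05, 1 and 0), and the medians were 0.11 and -0.19. Under vehicle 3 were higher and 2 lower on the arrays labelled BTG1 shRNA (8.46% and 6.21% of all clusters were). Under prednisolone 0 were higher and 2 lower (10.0% and 7.51% of all clusters). DELE1, which relays mitochondrial stress to this pathway, was lower under both treatments (-1.81 and -1.79, SE 0.18 each). Of 25 other reported targets of ATF4 and CHOP 4 rose with prednisolone in control cells and 0 on the arrays labelled BTG1 shRNA. Of all clusters 0.928% and 0% did. The medians of the 25 genes were 0.44 and 0.17. The 4 were NDRG1 (1.65, SE 0.18), TXNIP (2.00, SE 0.22), DDIT4 (2.46, SE 0.29) and SESN3 (1.36, SE 0.24), and TXNIP and DDIT4 were also among the 13 glucocorticoid-induced genes. Between the labels 4 of the 25 were called higher and 2 lower on the arrays labelled BTG1 shRNA under vehicle (8.46% and 6.21% of all clusters). Under prednisolone 3 were higher and 9 lower (10.0% and 7.51%). Among them under vehicle, SLC7A3, a cationic amino acid carrier, was lower by -4.85 (SE 0.20) and the taurine carrier SLC6A6 higher by 3.79 (SE 0.25).

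The unadjusted counts of the following lists stand beside 1351 higher and 1175 lower of all 17881 clusters in control cells, and 125 and 61 with the BTG1 shRNA label. Of 19 aminoacyl-tRNA synthetases 0 were called with prednisolone under either label, with medians of 0.48 and 0.00. At an unadjusted limma p below 0.05, 8 were higher and 2 lower in control cells, and 2 higher and 0 lower with the BTG1 shRNA label. Genes of the unfolded protein response in the endoplasmic reticulum had medians of -0.34 and -0.02 (0 of 14 called). At an unadjusted limma p below 0.05, 1 was higher and 5 lower in control cells, and 0 passed with the BTG1 shRNA label. NRF2 and glutathione genes, which share SLC7A11 as a target with ATF4, had medians of 0.27 and 0.23 (0 of 10 called, 3 and 0 higher unadjusted). Between the labels 3 of these 10 were called higher on the arrays labelled BTG1 shRNA under vehicle and 0 lower (8.46% and 6.21% of all clusters). They were SRXN1, GSR and GCLC (1.93, 1.34 and 1.91), and 2 of the 10 had a negative difference. SLC7A11 was lower in that comparison, and whether these differences are linked was not tested. Of 14 genes of amino acid sensing 3 rose with prednisolone in control cells, where 0.928% of all clusters did. They were SESN1 (2.70, SE 0.33), SESN3 and the cluster of CASTOR1 and TBC1D10A (2.47, SE 0.26). SESN1 and SESN3 are sestrins like SESN2, and CASTOR1 is an arginine sensor that restrains mTORC1. With the BTG1 shRNA label 0 of 14 were called (0 at an unadjusted limma p below 0.05), as were 0% of all clusters.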

How the data were processed

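The authors deposited log2 expression values per transcript cluster of 8 exon arrays, summarised over core meta-probe sets built on hg18, per the labels. Per the submitters' processing notes, Partek and RMA were used, with versions and settings not stated. Most decimal points were lost in the deposited log2 table, and 153 of 143048 values kept one. Each lost point was restored behind the leading digit, or behind 2 digits in the 2831 values that start with 1. The plain log2 unit assumed in the design was thereby reached, and the tests stayed as planned. No other normalization or filter was applied, and 0 columns were left out. Symbols came from the platform annotation. The 17881 clusters of 8 arrays were modelled by 4 group means with limma 3.58.1 in R 4.3.3 (4 residual and 3.51 prior degrees of freedom), with 5 contrasts and Benjamini-Hochberg adjustment over all clusters of a contrast at 0.05. The fit was tested on simulated data.

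The members and lists were chosen with earlier results of these data known. Array values are given for members called with a difference of at least 1 and for ATF4, ASNS, DDIT3, TRIB3 and CHAC1, and for others where a sentence turns on them, which were then chosen after their values were seen. Genes of other lists are named where called, at most 4 per list in a contrast. Array scaling, a filter on dim clusters, the lost points, the prior, array weights, a replicate block, clusters with 1 symbol and each array left out were tried as alternatives. The small number of arrays limits the precision.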

Additional observations from a re-analysis of the deposited data

Results flagged for a closer look

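SLC43A1, the carrier of large neutral amino acids, had prednisolone differences of opposite sign under the 2 labels, neither of them called. It read 7.59 and 7.44 with vehicle and 7.05 and 6.73 with prednisolone in control cells, so both prednisolone arrays were lower. On the arrays labelled BTG1 shRNA it read 6.50 and 6.63 with vehicle and 7.15 and 7.02 with prednisolone, so both were higher. Of all clusters 26.4% were lower without overlap in control cells and 18.0% higher without overlap on the arrays labelled BTG1 shRNA. The share of clusters with both was not counted. The difference of the effects was 1.15 (SE 0.27, 95% interval 0.53 to 1.77) and was not called (limma adjusted p = 0.240). Over the alternatives it lay between 0.98 and 1.32 with adjusted p from 0.0975 to 0.891.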

How the results depend on the processing

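Of 44 results on single genes over 701 alternatives, 646 kept direction and side of the threshold, 42 lost a call, 2 gained one and 11 changed sign, each of these being a difference that was not called. The sign changes were ASNS with prednisolone in control cells (0.0035 after centring each array, -0.29 to 0.046 without 1 array) and on the arrays labelled BTG1 shRNA (-0.15 to 0.63 without 1 array), and its difference of effects (-0.028 to 0.75). They were also ATF4 on the arrays labelled BTG1 shRNA (-0.0054 after centring, -0.18 to 0.26 without 1 array), CHAC1 in control cells (-0.21 to 0.70) and the difference of effects of TRIB3 (0.15 after quantile normalization, -0.26 to 0.20 without 1 array).

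Without 1 array, members called ranged from 0 to 3 with prednisolone in control cells, 3 to 11 between the labels under vehicle and 6 to 13 under prednisolone, and all clusters called from 40 to 770, 1289 to 5958 and 1746 to 3891. For the difference of effects, clusters called ranged from 0 to 24. With array weights, 1 member and 93 clusters were called with prednisolone in control cells, SLC7A11 (adjusted p = 0.0582) and SESN2 (adjusted p = 0.0777) losing theirs, and 11 clusters for the difference of effects. That difference had 14 clusters after centring, 8 without values starting with 1 and 39 with a trended prior. Centring ended the vehicle call of SLC7A11 between the labels (adjusted p = 0.0632). The count of genes higher without overlap in both prednisolone comparisons lay between 16 and 20 without 1 array. These alternatives were chosen after seeing the data. Leaving out an array cannot lower this count, so that range is no check of it. The causes were not tested.

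Same-numbered arrays deviated together with correlations of 0.0072 to 0.59 over 6 pairs of groups. The lowest was between control prednisolone and BTG1 shRNA vehicle, and the other pairs had 0.26 to 0.59. No label ties a number to a culture, so what same-numbered arrays share beyond the number is not known. With the replicate number as a block, 5 members and 755 clusters were called with prednisolone in control cells, 4553 clusters between the labels under vehicle, and 96 clusters and 1 member, DDIT3 (adjusted p = 0.0464), for the difference of effects.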
